A study of Xenopus laevis with 12 samples.

Results

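Growth hormone reads in whole tadpole brain come from 3 genes in these data. They are gh1.L (gene number 378580), gh1.S (399154) and gh2.S (373617), found by their NCBI Gene numbers among the 37018 numbers counted in each library. All 3 passed the filter on low counts that left 26570 genes for testing. They were chosen by gene number with their CPM in all 4 groups already known. Their levels and fold changes are therefore given as a description, without p-values.

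Growth hormone is made by somatotrophs, cells of the anterior pituitary that depend on the transcription factor Pou1f1. Release is driven by growth hormone-releasing hormone and held back by somatostatin, both made in the hypothalamus. The hormone binds a cytokine-type receptor that signals through JAK2 and STAT5, and STAT5 in turn activates feedback inhibitors of the SOCS family and the gene of insulin-like growth factor 1. Xenopus laevis, an African clawed frog, is allotetraploid, so many genes have a copy on an L and on an S chromosome. gh1.L and gh1.S are such a pair, and the gene table used for names gives xGH-A as a synonym of gh1.S and xGH-B as a synonym of gh2.S.

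RNA was taken from whole brains at Nieuwkoop-Faber (NF) stages 45 and 47, both tadpole stages. Of the 4 groups of 3 libraries, both control groups were wild-type tadpoles without drug. Both thioridazine groups had been exposed to 90 µM thioridazine between NF 14 and NF 26. Thioridazine is an antipsychotic that blocks dopamine receptors. The labels describe the exposed tadpoles as having thioridazine-induced brain abnormalities. Any part of these abnormalities in the growth hormone values was not tested. Exposed and control embryos were kept at 18 °C during the exposure window, at 50 embryos in 10 mL, and at 14 °C before and after it. No genetic change was made in any group. The labels number biological replicates without giving the clutches or the number of brains behind a library, so p-values below measure the spread between these samples. They also do not say whether the pituitary stayed attached to every brain.

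Libraries held between 12843954 and 18164871 counted reads. Levels are CPM, the count relative to the library's total after TMM scaling, given as mean ± SD over 3 libraries. Fold changes are log2 values with their standard error (SE) from an edgeR fit of all 12 libraries. Lower RNA in a whole-brain library can mean fewer cells of a type or less RNA per cell, and these cannot be told apart. Transcript lengths were not used, so levels are compared between libraries and not between genes, and the split of reads between copies is a split of reads only.

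Markers of the tissue were present throughout. Of 36 copies of hypothalamic and neurohypophysial genes in the files, 34 passed the filter, and their summed level lay between 771.3 and 1166 CPM in every library. Reads of pomc, the gene of the precursor of adrenocorticotropin and melanotropin, were found at 68.9 CPM or more for each copy in every library. Markers of neighbouring tissue varied more. Skin and epithelium markers summed to 836.8 to 5025 CPM in NF 45 controls and 733.5 to 5904 CPM in NF 45 thioridazine libraries, and the lowest value of each group was that of replicate 2. Liver, pancreas and gut markers reached 2109 CPM in NF 45 control replicate 3, while the other 2 NF 45 controls stood at 608.7 and 600.3 CPM. Of this list, prss1.L and fabp2.S had no read in any library.

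At NF 45 the growth hormone genes stood lower in thioridazine brains, at about the same ratio in all 3 genes. gh1.L was measured at 27.0, 20.7 and 15.9 CPM in control replicates 1, 2 and 3, and at 16.1, 7.14 and 8.69 CPM in thioridazine replicates 1, 2 and 3. The groups overlapped by a narrow margin, because thioridazine replicate 1 lay just above control replicate 3. gh1.S was at 28.2, 20.9 and 15.9 CPM in controls and at 15.8, 7.75 and 6.33 CPM after thioridazine. The highest exposed library here stayed just under the lowest control. gh2.S was at 12.5, 8.73 and 8.47 CPM in controls and at 7.50, 3.12 and 3.73 CPM after thioridazine. These groups did not overlap either.

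The group means at NF 45 were 21.2 ± 5.55 CPM in controls and 10.6 ± 4.77 CPM in thioridazine brains for gh1.L. For gh1.S they were 21.7 ± 6.18 and 9.97 ± 5.13 CPM, and for gh2.S they were 9.91 ± 2.27 and 4.78 ± 2.37 CPM. The log2 fold changes were -1.004 ± 0.359 for gh1.L, -1.13 ± 0.414 for gh1.S and -1.06 ± 0.372 for gh2.S (SE). The 3 values lie within 1 SE of each other. Non-overlapping groups with the exposed libraries below the controls were found for 2 of the 3 growth hormone genes and for 1.56% of all genes tested. This contrast was known when the genes were chosen, and the count is given as a description.

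At NF 47 the difference was smaller on the log2 scale but about as wide in mean CPM. The groups overlapped for every one of the 3 genes. Mean levels in controls and after thioridazine were 31.8 and 21.9 CPM for gh1.L, 31.6 and 20.7 CPM for gh1.S and 15.1 and 10.6 CPM for gh2.S. gh1.L was at 27.1, 44.0 and 24.4 CPM in control replicates 1, 2 and 3 and at 23.1, 28.2 and 14.4 CPM in thioridazine replicates 1, 2 and 3. gh1.S was at 28.5, 41.6 and 24.5 CPM in controls and at 19.3, 30.8 and 12.02 CPM after thioridazine. Control replicate 2 was the highest library of the whole set for both genes, and thioridazine replicate 2 was the highest of its own group. gh2.S was at 14.2, 19.3 and 11.9 CPM in controls and at 8.85, 15.7 and 7.20 CPM after thioridazine, with the same library highest in each group. For gh1.L, gh1.S and gh2.S the log2 fold changes at NF 47 were -0.54 ± 0.350, -0.61 ± 0.403 and -0.52 ± 0.359 (SE). Groups with all exposed libraries below all controls were found for 3.55% of the genes tested at NF 47 and for 0 of the 3 growth hormone genes.

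**Figure D1:**
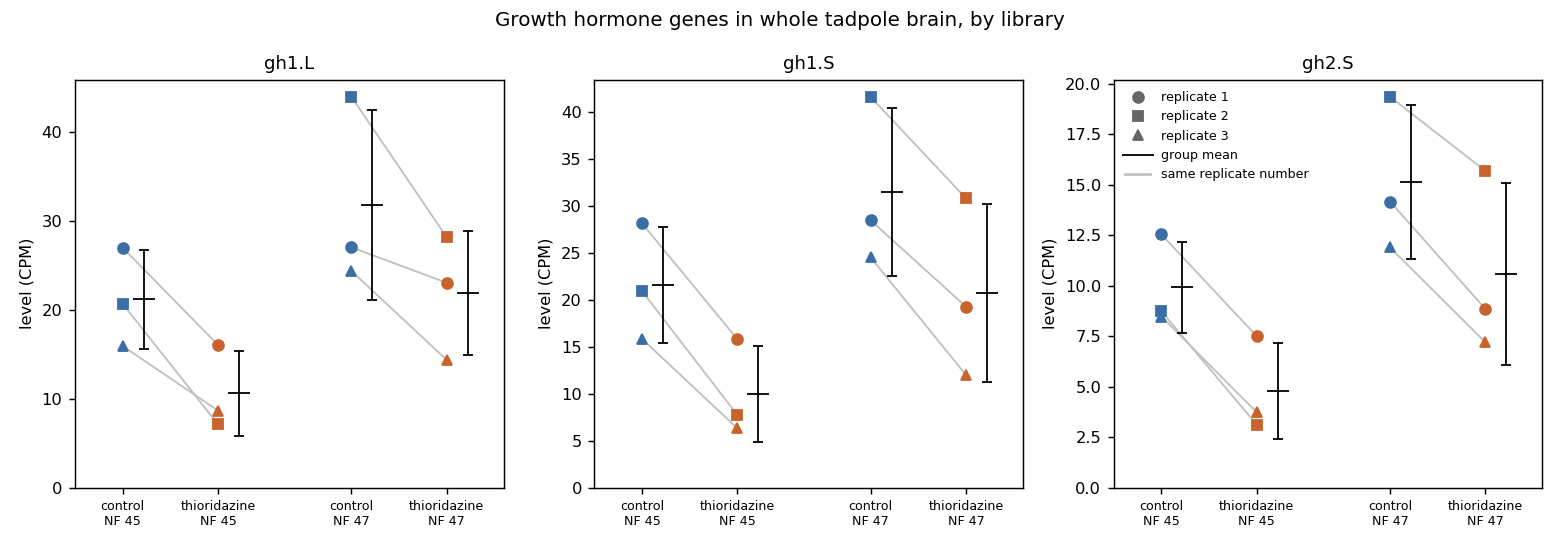
Level in CPM (y axis, from 0) of gh1.L, gh1.S and gh2.S in each of the 12 libraries (x axis, group), with bars for the group mean ± SD of 3 libraries and grey lines joining libraries of the same replicate number within a stage. Every grey line falls from control to thioridazine, while the groups overlap for gh1.L at NF 45 and for all 3 genes at NF 47.

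The labels do not state a pairing of libraries. Within a stage, control and thioridazine libraries with the same number deviated together from their group means across genes. They were therefore also read as pairs, a choice taken from these same data. Correlations between differently numbered libraries are not given here. In all 6 pairs, each of gh1.L, gh1.S and gh2.S was lower in the thioridazine library. Of the genes tested, 3.19% were lower in all 6 pairs and 3.11% were higher in all 6. The sum of the 3 genes in the thioridazine library was 58.2%, 35.8% and 46.5% of that in the same-numbered control at NF 45, and 73.5%, 71.2% and 55.3% at NF 47. Replicate 2 thus gave the largest gap of the 3 at NF 45, and replicate 3 at NF 47.

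The replicate block rests on pairs read from these same data, and the errors and calls with it are given with that limit. With pairs entered as a block in the fit, the fold changes hardly moved and their errors shrank. At NF 45 they were -1.05 ± 0.162 for gh1.L, -1.18 ± 0.153 for gh1.S and -1.12 ± 0.176 for gh2.S. At NF 47 they were -0.54 ± 0.153, -0.66 ± 0.144 and -0.56 ± 0.162 in the same order. Averaged over both stages they were -0.79 ± 0.111, -0.92 ± 0.105 and -0.84 ± 0.120 (all SE). Without the block the averages were -0.77 ± 0.250, -0.87 ± 0.288 and -0.79 ± 0.258.

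Calls at an adjusted p under 0.05 were rare in every treatment comparison. Without the block, 0 genes (0% of those tested) were called by edgeR at NF 45, at NF 47 or on average, with 526, 291 and 783 genes at an unadjusted p under 0.05, and DESeq2 called 9, 1 and 28. With the block, edgeR called 0.0226% of genes at NF 45, 0.00376% at NF 47 and 0.0941% on average. The growth hormone genes were chosen with these comparisons known, so no call is read for them. Their averaged fold changes in the blocked fit with 1 pair left out stayed between -1.02 and -0.67 for the 3 genes.

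In the NF 45 pair numbered 2, skeletal muscle markers summed to 3879 CPM in the control and 5535 CPM in the thioridazine library. The other NF 45 libraries lay between 1082 and 2237 CPM. These 2 libraries, the NF 45 pair with the least skin and the most skeletal muscle marker RNA, were also left out together. The NF 45 fold changes were then -0.80 for gh1.L, -0.998 for gh1.S and -0.91 for gh2.S. Any part of marker levels in the growth hormone values was not tested.

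Mean levels were higher at NF 47 than at NF 45 in both treatments, with overlapping groups. The sum of the 3 genes was 52.8 ± 13.9 CPM in NF 45 controls and 78.5 ± 23.4 CPM in NF 47 controls. After thioridazine it was 25.4 ± 12.2 CPM at NF 45 and 53.2 ± 20.6 CPM at NF 47. In order of level, NF 45 thioridazine brains came lowest and NF 47 controls highest, while NF 45 controls and NF 47 thioridazine brains, at nearly equal means, did not differ beyond their spread. The log2 change with stage in controls was 0.58 ± 0.350 for gh1.L, 0.54 ± 0.402 for gh1.S and 0.61 ± 0.360 for gh2.S. In thioridazine brains it was 1.05 ± 0.359, 1.06 ± 0.413 and 1.15 ± 0.372 in that order (SE). The thioridazine effect at NF 47 minus that at NF 45 was 0.46 ± 0.498, 0.52 ± 0.574 and 0.54 ± 0.514. With the block it was 0.51 ± 0.222, 0.52 ± 0.210 and 0.56 ± 0.239 (SE). Of all genes tested, 0% were called by edgeR for this difference, with or without the block, and for either stage comparison, with 91 at an unadjusted p under 0.05 for the difference without the block and 402 with it, 2965 for stage in controls and 2560 for stage after thioridazine. DESeq2 called 420 genes for stage in controls and 273 after thioridazine.

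The split of growth hormone reads between the gene copies was not itself named in the choice of the genes. It is computed from the same counts, which were known then, and the p-values for it are read with that limit. Reads of gh1.L and gh1.S came in nearly equal numbers. The gh1.S share of gh1 reads was 51.0%, 50.3% and 49.9% in NF 45 controls and 51.3%, 48.6% and 50.1% in NF 47 controls. After thioridazine it was 49.6%, 52.1% and 42.1% at NF 45 and 45.5%, 52.2% and 45.5% at NF 47. The exposed libraries were thus more scattered, with an SD of 5.18 percentage points at NF 45 and 3.87 at NF 47 against 0.593 and 1.34 in controls. They also held fewer gh1 reads, at NF 45 421, 267 and 254 against 762, 668 and 413 in controls. In NF 45 control replicate 1 alone, the 95% exact binomial interval of 47.4% to 54.7% took in the shares of all NF 45 controls. The part of counting error in the difference in scatter was not tested. The lowest share, in NF 45 thioridazine replicate 3, rested on 254 reads and had a 95% exact binomial interval of 36.0% to 48.5%. Intervals of this kind cover counting error only.

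The mean gh1.S share was 2.36 percentage points lower after thioridazine (47.8% against 50.2%). An exact permutation test within stage gave p = 0.225, two-sided, with 0.005 as the smallest p the 400 arrangements allow. Libraries were permuted within a stage without keeping same-numbered pairs together, and the counts were known before the test. The share differed by -0.29 points between NF 47 and NF 45 (exact permutation p = 0.91). Adjusted over these 2 tests, the exact permutation p-values were 0.45 and 0.91. Leaving out 1 library moved the thioridazine difference between -3.48 points, without NF 47 thioridazine replicate 2, and -0.91 points, without NF 45 thioridazine replicate 3. gh2.S supplied between 17.3% and 21.4% of all growth hormone reads in every library, and its group means lay at 19.0%, 18.7%, 19.4% and 19.9% in NF 45 controls, NF 45 thioridazine, NF 47 controls and NF 47 thioridazine. How reads that match both copies were counted is not given in the sources used here, so the split between copies is uncertain by an unknown amount.

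**Figure D2:**
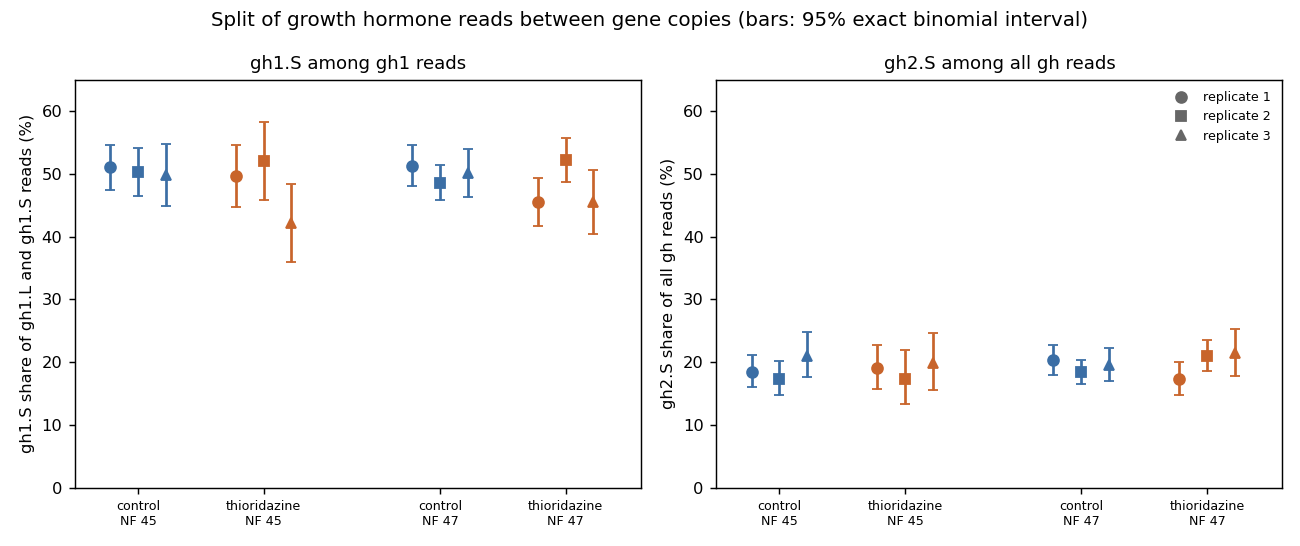
Share in percent (y axes, from 0) of gh1.S among the reads of gh1.L and gh1.S (left) and of gh2.S among all growth hormone reads (right), one point per library in 4 groups (x axes), with 95% exact binomial intervals. Control shares of gh1.S sit between 48.6% and 51.3%, and NF 45 thioridazine replicate 3 is lowest at 42.1%.

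Among the other anterior pituitary hormones, prolactin lay on the side opposite to growth hormone at NF 47. prl.2.S (108697263), a gene of this relative of growth hormone made by lactotrophs, was at 11.7, 15.1 and 15.2 CPM in NF 45 controls and at 18.6, 11.8 and 19.99 CPM after thioridazine. At NF 47 it was at 12.7, 18.3 and 14.3 CPM in controls and at 32.0, 47.6 and 27.9 CPM after thioridazine, so that every exposed library lay above every control. The share of all genes tested with that pattern was not counted. The log2 fold change at NF 47 was 1.24 ± 0.245, with an edgeR adjusted p of 1, and 0.205 with the replicate block. DESeq2 called it, and the adjusted p ranged from 2.34e-05 to 1 over 19 alternatives. prl.1.L and prl.1.S, the other prolactin copies, had at most 4 reads in a library and were not tested.

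Of the glycoprotein hormone genes, both cga copies, tshb.S and, on 2 to 18 reads, gphb5.L were lower in at least 5 of 6 pairs. cga, which encodes the alpha subunit that thyrotropin and the gonadotropins share, was lower after thioridazine in 5 of 6 pairs for cga.L (432256) and in 6 of 6 for cga.S (378681). cga.L was at 8.09 ± 3.56 CPM in controls and 5.47 ± 2.81 CPM after thioridazine at NF 45, and at 12.9 ± 5.79 and 9.85 ± 5.53 CPM at NF 47. cga.S was at 5.34 ± 2.66 and 3.45 ± 1.62 CPM at NF 45 and at 10.6 ± 3.90 and 7.64 ± 2.68 CPM at NF 47. Groups of both copies overlapped at both stages. The averaged log2 fold changes were -0.48 ± 0.366 and -0.56 ± 0.310. Their edgeR adjusted p-values were both 0.9999 without the block, and 0.366 and 0.188 with it. tshb.S (100381085), a gene of the thyrotropin beta subunit, was at 1.81 ± 0.545 and 1.15 ± 0.303 CPM at NF 45. At NF 47 it was at 2.09 ± 0.496 and 1.26 ± 0.360 CPM, and it was lower in 6 of 6 pairs. The averaged log2 fold change of tshb.S was -0.69 ± 0.260, with an edgeR adjusted p of 0.9999 without the block and 0.399 with it. Its other copy, tshb.L, was lower in 3 of 6 pairs. fshb, lhb and gpha2 copies had at most 5 reads in any library. gphb5.L, on 2 to 18 reads, had the lowest log2 fold change of the other anterior pituitary hormones at NF 47 (-1.28 ± 0.770, SE) and was not called.

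pomc was the most read of these genes, and groups of both copies overlapped at both stages. pomc.L (380532) was at 138.8 ± 31.4 CPM in NF 45 controls and 108.2 ± 34.9 CPM in NF 45 thioridazine brains, and at 229.6 ± 61.2 and 227.5 ± 81.5 CPM at NF 47. pomc.S (373802) was at 101.9 ± 17.2 and 93.2 ± 22.4 CPM at NF 45 and at 191.6 ± 73.7 and 201.1 ± 96.6 CPM at NF 47. Both copies were lower in all 3 pairs at NF 45 and in 1 of 3 at NF 47.

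**Figure D3:**
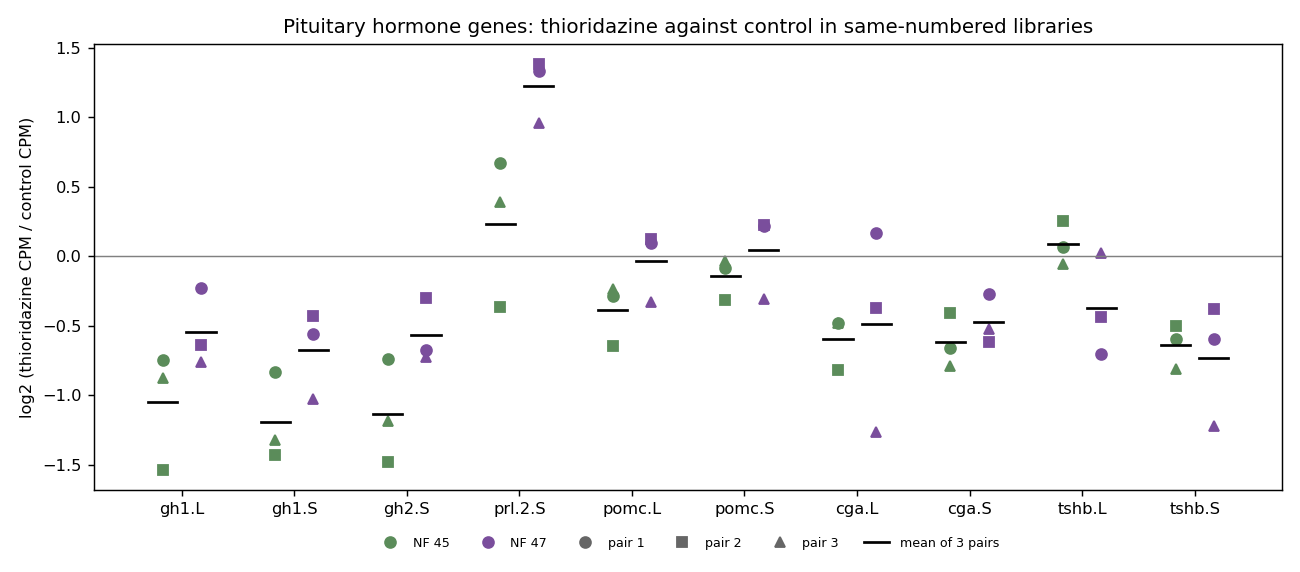
Log2 ratio of thioridazine to control CPM (y axis) in each same-numbered pair at NF 45 and NF 47 for growth hormone and other pituitary hormone genes (x axis), with black bars for the mean of 3 pairs. Each growth hormone gene lies below 0 in all 6 pairs, as did 3.19% of all genes tested. prl.2.S lies above 0 in all 3 NF 47 pairs, and the pomc points sit on both sides at NF 47.

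Growth hormone reads were also set against reads of other pituitary hormone genes in the same whole-brain library. The part of these reads that came from the gland is not known. The ratio was lower after thioridazine in every same-numbered pair, except against cga at NF 47, where 2 of 3 pairs were lower. Per 100 pomc reads, the 3 growth hormone genes together had 23.0, 25.2 and 17.7 reads in NF 45 controls and 15.4, 12.7 and 9.07 after thioridazine. At NF 47 the values were 23.7, 18.7 and 15.0 in controls and 15.7, 11.8 and 10.3 after thioridazine. The NF 45 groups did not overlap, and NF 47 thioridazine replicate 1 exceeded NF 47 control replicate 3. The mean log2 ratio over the 3 pairs was -0.84 ± 0.229 (SD) at NF 45 and -0.60 ± 0.0625 (SD) at NF 47.

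Against cga the gap was narrower at NF 45, and at NF 47 it was not beyond the spread of the pairs. Per 100 cga reads there were 329.2, 501.9 and 415.1 growth hormone reads in NF 45 controls and 281.1, 283.3 and 293.5 after thioridazine, without overlap. At NF 47 the values were 345.3, 310.1 and 372.8 in controls and 263.7, 306.0 and 389.8 after thioridazine, with full overlap, and the mean log2 ratio of the pairs was -0.11 ± 0.241 (SD). Against prolactin the gap was wider. Per 100 prl reads the counts were 573.6, 331.1 and 264.1 in NF 45 controls and 212.2, 153.1 and 92.7 after thioridazine, and they were 545.3, 572.3 and 419.9 against 159.5, 156.7 and 119.9 at NF 47. Neither stage showed overlap, and prl.2.S itself was higher in 5 of the 6 pairs.

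The stage difference depended on the same choice. Scaled to the reads of all other pituitary hormones in place of the whole library, the change from NF 45 to NF 47 in controls was -0.17 for gh1.L, -0.20 for gh1.S and -0.14 for gh2.S, where it had been above 0 with TMM scaling. Most of these hormone reads were pomc reads, for example 4063 of 4569 in NF 45 control replicate 1 and 8527 of 9399 in NF 47 control replicate 2. All 23 tested genes of the list of other anterior pituitary hormones and their processing enzymes, with granins among them, were higher in NF 47 controls, with a median log2 change of 0.55 against -0.03 over all genes. None of the 23 was called by edgeR.

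**Figure D4:**
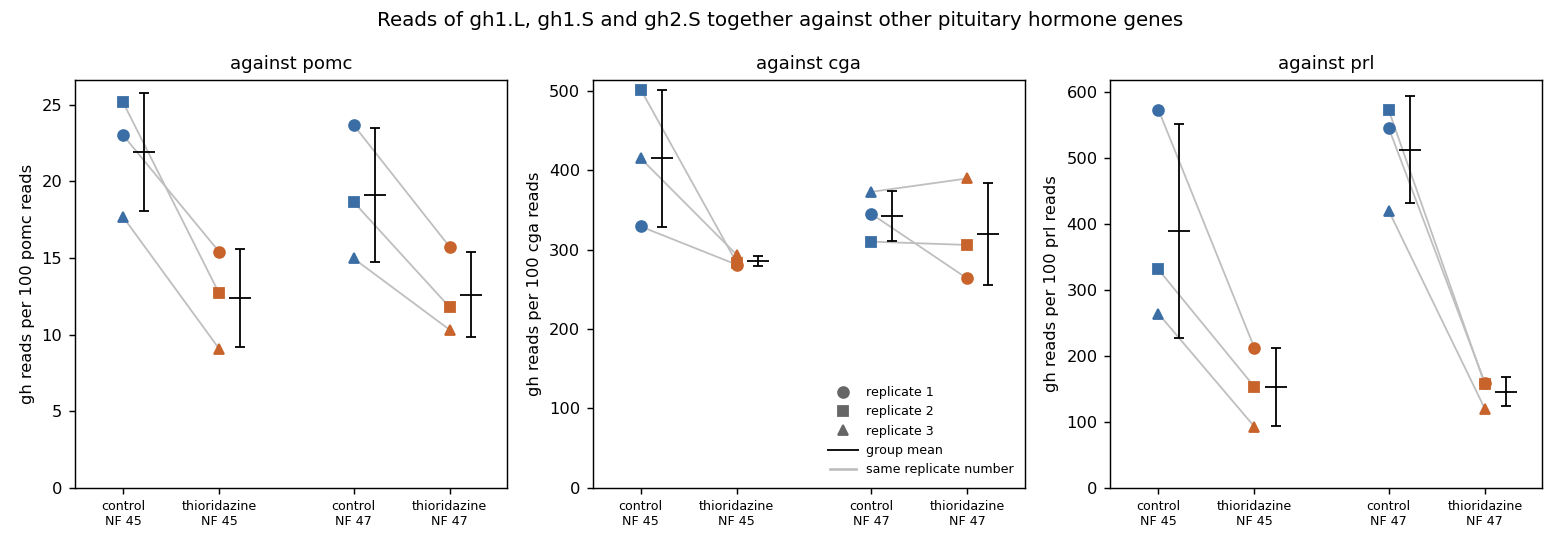
Reads of gh1.L, gh1.S and gh2.S together per 100 reads of pomc, of cga and of prl (y axes, from 0) in each library by group (x axes), with bars for the group mean ± SD and grey lines joining same-numbered libraries. Exposed libraries lie below controls against prl at both stages and against pomc and cga at NF 45, while the NF 47 groups overlap against pomc and cga.

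pou1f1.L (108707666), the somatotroph, lactotroph and thyrotroph lineage factor, had 7, 13 and 10 reads in NF 45 controls and 1, 9 and 2 after thioridazine, and 15, 14 and 5 against 6, 12 and 4 at NF 47. It was lower in 6 of 6 pairs. Without the block its averaged log2 fold change was -1.01 ± 0.477 (edgeR adjusted p 0.9999), and with the block the edgeR adjusted p was 0.446. At NF 45 and NF 47 it had the lowest fold change of the 50 tested pituitary lineage factors, of which 19 and 10 were lower and 31 and 40 higher. pitx3.S (2.09 ± 0.794 against 3.42 ± 0.711 CPM) was at the other end at NF 45 and neurod4.S, with a log2 fold change of 0.43 ± 0.252, at NF 47. The list's median log2 fold change was 0.07 at NF 45 and 0.13 at NF 47, beside medians of -0.0038 and -0.00098 over all genes tested. By edgeR it had 0 calls with or without the block.

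ghrhr (101101700), the receptor of growth hormone-releasing hormone, was at 1.40 ± 0.816 and 1.90 ± 0.604 CPM at NF 45 and at 2.68 ± 0.196 and 2.20 ± 0.883 CPM at NF 47 in control and thioridazine brains, with overlap at both stages. Somatostatin, which inhibits growth hormone release, was read from sst.1.L (399212) at 85.2 ± 9.91 and 90.0 ± 15.5 CPM at NF 45 and at 120.6 ± 11.4 and 112.6 ± 17.1 CPM at NF 47. Its copy sst.1.S (398676) was at 70.0 ± 12.97 and 71.8 ± 18.9 CPM at NF 45 and at 93.6 ± 9.54 and 86.2 ± 10.2 CPM at NF 47. Both somatostatin genes were thus within their spread between treatments. Of 45 tested genes of growth hormone secretion control, 29 were higher and 16 lower at NF 45 and 19 higher and 26 lower at NF 47, with medians of 0.05 and -0.03.

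In that list 1 gene passed the edgeR test with the block. gnrh2.L (108697134), a gene of gonadotropin-releasing hormone II, was at 10.4 ± 1.504 CPM in controls and 22.4 ± 1.67 CPM after thioridazine at NF 45, and at 20.5 ± 3.65 and 29.2 ± 7.61 CPM at NF 47. Its averaged log2 fold change with the block was 0.81 ± 0.124 (edgeR adjusted p 0.0428), higher in 5 of 6 pairs. Without the block edgeR gave an adjusted p of 0.699, and with the block the p ranged from 0.0128 to 0.333 when 1 pair was left out. In the averaged comparison DESeq2 called it without the block (adjusted p 0.000523) and with it (4.4e-05). It stayed called without the NF 45 pair numbered 3 or the NF 47 pair numbered 2, and was lost without any of the other 4 pairs. vipr2.S, a receptor of vasoactive intestinal peptide with 5 to 24 reads, had the lowest fold change of the list at NF 45 (-1.79 ± 0.494) and the highest at NF 47 (0.83 ± 0.471). ghsr.S, the ghrelin receptor, had the lowest at NF 47 (-0.43 ± 0.353). None of these 3 values belonged to a called gene.

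Downstream, the feedback inhibitor cish was higher after thioridazine, on the side opposite to the hormone. cish.L (108714605) was at 5.43, 6.98 and 6.85 CPM in NF 45 controls and at 12.4, 9.15 and 9.93 CPM after thioridazine. At NF 47 it was at 9.68, 8.18 and 10.1 CPM in controls and at 14.8, 13.7 and 17.7 CPM after thioridazine. The groups did not overlap at either stage, and the share of all genes tested with exposed libraries above controls was not counted. Its averaged log2 fold change was 0.71 ± 0.125, with an edgeR adjusted p of 0.699 without the block and 0.0527 with it. DESeq2 called it, and over 19 alternatives the adjusted p ranged from 0.00151 to 1. cish.S (108715831) was at 5.26 ± 0.816 and 8.35 ± 1.34 CPM at NF 45 and at 7.43 ± 0.640 and 11.4 ± 2.90 CPM at NF 47. It was also higher in 6 of 6 pairs, with an averaged change of 0.64 ± 0.152. Its edgeR adjusted p was 0.9999 without the block and 0.158 with it.

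No copy of the receptors or of socs2 was called in the averaged comparison. ghr.L (398153), the growth hormone receptor, was at 3.62 ± 1.00 and 3.10 ± 1.00 CPM at NF 45 and at 2.57 ± 0.699 and 2.98 ± 1.17 CPM at NF 47. ghr.S (108707301) was at 2.94 ± 0.633 and 2.54 ± 0.556 CPM at NF 45 and at 2.23 ± 0.219 and 2.23 ± 0.164 CPM at NF 47. The prolactin receptor copies, prlr.L and prlr.S, were measured between 2.11 and 6.30 CPM in single libraries with overlapping groups. socs2.L (108711062), another feedback inhibitor of the receptor, was at 3.10 ± 0.704 and 3.81 ± 1.13 CPM at NF 45 and at 2.96 ± 0.129 and 3.49 ± 0.392 CPM at NF 47. socs2.S stood at 1.32 ± 0.320 and 1.90 ± 0.269 CPM at NF 45 and at 1.51 ± 0.187 and 1.54 ± 0.500 CPM at NF 47. igf1.S, a gene of insulin-like growth factor 1, had 2 to 8 reads in a library and did not pass the filter.

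**Figure D5:**
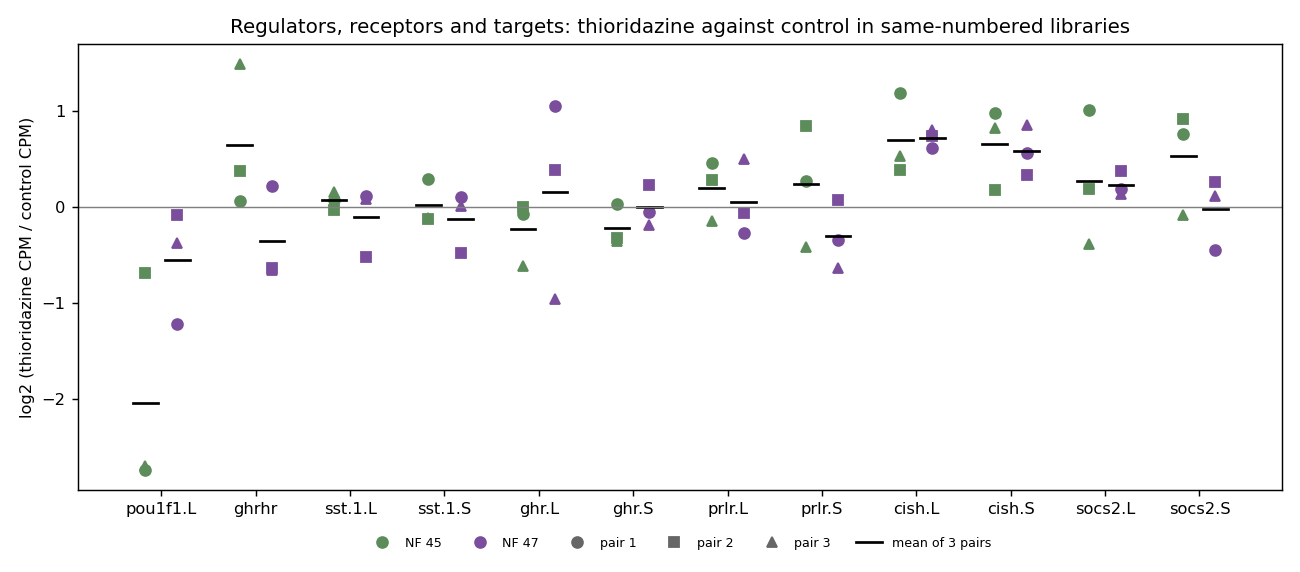
Log2 ratio of thioridazine to control CPM (y axis) in each same-numbered pair at NF 45 and NF 47 for regulators, receptors and targets of growth hormone (x axis), with black bars for the mean of 3 pairs. cish.L and cish.S lie above 0 in all 6 pairs and pou1f1.L lies below 0 in all 6, the latter on 1 to 15 reads a library.

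Of 49 tested genes of growth hormone receptor signalling and its targets, 28 were higher and 21 lower at NF 45 and 35 higher and 14 lower at NF 47, with medians of 0.05 and 0.08. igfbp2.S (108702906), a binding protein of insulin-like growth factors, was the 1 gene of this list called by edgeR, in the averaged comparison with the block. DESeq2 called cish.L in the averaged comparison without the block (adjusted p 0.00151) and with it (0.00937). The level of igfbp2.S is given next. It was at 1.96 ± 1.38 and 4.79 ± 3.27 CPM at NF 45 and at 1.80 ± 0.543 and 3.37 ± 0.593 CPM at NF 47, and rose by a log2 fold change of 1.11 ± 0.173 (edgeR adjusted p 0.0405), in 6 of 6 pairs. Leaving out 1 pair gave an adjusted p between 0.0105 and 0.244, and the gene stayed called only without the NF 45 pair numbered 3. Without the block the change was 1.09 ± 0.500 and not called. igfbp4.S was lowest of the list at NF 45 (-1.27 ± 0.543) and pappa2.S, a protease of such binding proteins, at NF 47 (-0.59 ± 0.483). The igfbp4.S value rested largely on 1 library, and was -0.16 without NF 45 control replicate 3. igfbp1.S was highest at NF 47 at 5.61 ± 4.08, on 0 to 181 reads in a library, and none of the 3 was called.

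The last 2 pathway lists described the surroundings of the gland. Of 34 neurohypophysial and hypothalamic genes, 28 were higher and 6 lower at NF 45, with a median of 0.30, and 22 were higher and 12 lower at NF 47, with a median of 0.09. oxt.S, an oxytocin-family peptide gene, was highest at NF 45 (9.35 ± 2.41 against 18.2 ± 5.63 CPM) and hcrt.L, a gene of hypocretin, at NF 47 (1.36 ± 0.157 against 2.03 ± 0.224 CPM). cartpt.L was lowest at NF 45 (-0.29 ± 0.177) and nmu.L at NF 47 (-0.64 ± 0.309). Of 24 genes of thyroid and glucocorticoid control, 9 were higher and 15 lower at NF 45 and 15 higher and 9 lower at NF 47. Their lowest were thrb.S at NF 45 (-0.60 ± 0.662) and nr3c2.S at NF 47 (-0.48 ± 0.295), and ttr.L was highest at both. At NF 45 ttr.L was at 0.39 ± 0.986, and between -0.13 and 2.48 with single libraries left out. Neither list had a call by edgeR in any treatment comparison of all 12 libraries, with or without the block. With 1 pair left out of the blocked fit, ttr.L was called at NF 45 in 1 of 6 fits (edgeR adjusted p 0.00806).

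Markers of other tissues differed with treatment to different degrees and with few calls. All 32 tested retina and pigment genes were higher at NF 47 after thioridazine, with a median of 0.51, and at NF 45 23 were higher and 9 lower. Of these, 2 were called higher by edgeR in the averaged comparison with the block, beside 0.0941% of all genes called there in either direction. For skeletal muscle, 35 of 38 were higher at NF 47 (median 0.62) and 27 at NF 45. Red blood cell markers split 15 to 6 at NF 45 and 7 to 14 at NF 47, and skin markers 23 to 27 and 30 to 20. Of 15 liver, pancreas and gut markers, 13 were lower at NF 45, with a median of -1.68. Their sum was 2109 CPM in NF 45 control replicate 3. Control replicates 1 and 2, at 608.7 and 600.3 CPM, lay within the range of the NF 45 thioridazine libraries (586.0 to 653.8 CPM). Summed levels of retina and pigment markers ran from 244.9 to 380.8 CPM in NF 47 controls and from 313.3 to 621.8 CPM in NF 47 thioridazine brains. Their part in the growth hormone values was not tested.

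Genes next to the growth hormone genes in the later assembly used for names were followed to see whether the difference reached beyond them, a choice made after the data were seen. psmc5.L and arf1.L flank gh1.L together with LOC108701767 and nsf.L, and psmc5.S, smarcd3.S, arf1.S and nsf.S lie around gh1.S. caprin1.S, slc39a13.S, cat.2.S and ddb2.S lie around gh2.S. The NF 45 log2 fold changes of these 12 genes ranged from -0.26 in arf1.S to 0.40 ± 0.840 in LOC108701767. At NF 47 they ranged from -0.56 ± 0.465 in slc39a13.S to 0.50 ± 0.896 in LOC108701767. gh2.S, beside slc39a13.S, was itself at -0.52 ± 0.359 there. None of the 12 was called by edgeR with or without the block. Without the block edgeR called 0% of all genes tested, so the lack of calls does not set these genes apart from the growth hormone genes.

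Across the 12 libraries the 3 growth hormone genes tracked each other closely. Pearson's r of log2 CPM was 0.978 between gh1.L and gh1.S, 0.980 between gh1.L and gh2.S and 0.977 between gh1.S and gh2.S. After the group means were taken out, these values were 0.943, 0.937 and 0.941, so the genes also varied together within groups. The libraries share depth, dissection and stage, and r is given as a description without a test. Reads that match more than 1 of these genes may also be shared in counting, and their part in r was not tested. Genes most like gh1.L beyond the other 2 included cga.L (r = 0.919), cga.S (0.914), tnn.L (0.898) and krt61.S (0.895). Those most like gh1.S were crbn.L (0.920), cga.L (0.914), pcsk6.L (0.902), snapc3.L (0.897) and cga.S (0.897). Both copies of cga were in both sets. With group means taken out, r of cga.L was 0.957 with gh1.L and 0.943 with gh1.S. Before that step, r with gh1.L was 0.850 for pomc.L and 0.161 for prl.2.S, and after it 0.823 and 0.538.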

How the data were processed

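Single-end 100 bp reads came from TruSeq libraries of DNase-treated total RNA, per the labels' protocols. The authors deposited raw read counts per NCBI Gene number, 1 table for each of 12 libraries, and the tools listed in the submitters' processing notes, without roles, are HISAT2, HTSeq, Trimmomatic and DESeq2. Their versions, the genome build, strand setting and the handling of reads that match several places are not given in the sources used here, so reads of similar L and S copies, overlapping genes and antisense genes may be shared. Gene numbers were matched to the RefSeq genes of Xenopus_laevis_v10.1, an assembly later than the data, used for names and gene order only; it named 33597 of 37018 numbers, which held 99.33% of reads. Base symbols of the lists were matched after removing the L or S ending and a sub-copy number, a rule chosen after the data were seen.

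Count tests used edgeR 4.0.16 under R 4.3.3 (filterByExpr, TMM, robust quasi-likelihood F test, 1 fit of 12 libraries, Benjamini-Hochberg adjustment over 26570 genes, called under 0.05). log2 CPM used a prior count of 2. Median biological variation was 20.8%. DESeq2 1.42.0 and limma-voom (limma 3.58.1), another scaling, no filter, a replicate block, left-out libraries and scaling to other hormone reads were alternatives. Scripts were tested on simulated counts.

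Deviations from group means of same-numbered control and thioridazine libraries correlated at 0.575, 0.845 and 0.449 at NF 45. At NF 47 the correlations were 0.291, 0.318 and 0.540. All were over 0.1, the limit used to read the numbers as pairs within a stage. The highest, 0.845, is that of the NF 45 pair with the least skin and the most skeletal muscle marker RNA. The labels do not state a pairing, and correlations between differently numbered libraries are not given here. Across NF 45 and NF 47, same-numbered control libraries gave -0.0556, -0.128 and 0.226, with only number 3 over 0.1. Same-numbered thioridazine libraries gave 0.186, 0.236 and 0.429, all over 0.1. By that limit the numbers pair libraries across stages after thioridazine but not in controls. The pairs read in the results above are pairs within a stage.

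The growth hormone genes and all gene lists were chosen with earlier results of these data known. Named beyond them were a fixed set of hormone, receptor and target genes, the lowest and highest gene of each pathway list in each treatment comparison, list genes called, and the 5 genes most like gh1.L and gh1.S, of which 1 is not reported here.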

Additional observations from a re-analysis of the deposited data

How the results depend on the processing

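Growth hormone fold changes after thioridazine kept their direction under every alternative run: at NF 45 they ranged from -1.42 to -0.45 for gh1.L, -1.62 to -0.59 for gh1.S and -1.53 to -0.53 for gh2.S, and at NF 47 from -0.75 to -0.06, -0.998 to -0.19 and -0.90 to -0.09. The ends nearest 0 at NF 45 came from scaling to cga reads, which gave -0.45 for gh1.L, -0.53 for gh2.S and -0.51 for the gh1 sum, and on average -0.26 for gh1.L and -0.32 for the gh1 sum. The difference with stage depended on scaling. In controls, the values for gh1.L, gh1.S, gh2.S and the gh1 sum were -0.17, -0.20, -0.14 and -0.19 scaled to all other pituitary hormones, -0.21, -0.23, -0.17 and -0.22 scaled to pomc, and -0.26, -0.28, -0.22 and -0.27 scaled to cga. In thioridazine brains they were 0.030, 0.020, 0.12 and 0.023, then 0.023, 0.013, 0.12 and 0.016, then 0.13, 0.12, 0.22 and 0.12. The cause was not tested. Most reads of all other pituitary hormones were pomc reads, so scaling to them and scaling to pomc largely repeat each other. Scaling to pomc and cga, and the blocked fits without pairs, were chosen after seeing the data.

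Genes called at NF 45, at NF 47 and on average numbered 9, 1 and 28 by DESeq2, 6, 1 and 25 with the replicate block in edgeR and 35, 8 and 75 with it in DESeq2. For stage in controls and in thioridazine brains they numbered 420 and 273 by DESeq2, 911 and 1 by limma-voom, 2 and 1 with a replicate block shared over stages, and 817 and 3 without both NF 45 libraries numbered 2. Leaving out 1 library gave 0 to 1 genes for stage in thioridazine brains. Leaving out 1 pair of the blocked fit gave 0 to 155 genes at NF 45, 0 to 55 at NF 47 and 1 to 303 on average, with the highest counts all without the NF 45 pair numbered 3.

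The averaged fold change changed sign for genes near 0: ghr.L was at 0.0030 with DESeq2 size factors, 0.0045 by DESeq2 and 0.12 by limma-voom, prlr.S at -0.12 by limma-voom, -0.0091 and -0.014 with the block in edgeR and DESeq2 and -0.13 without both libraries numbered 2, sst.1.S at 0.011 by limma-voom, and pomc.S and sst.1.L at 0.013 and 0.021 without both libraries numbered 2. With single libraries left out, ranges crossed 0 for ttr.L at NF 45 (-0.13 to 2.48), ghrhr (-0.13 to 0.22), pomc.S (-0.26 to 0.13), prlr.S (-0.12 to 0.16), ghr.L (-0.14 to 0.14), sst.1.S (-0.13 to 0.060), sst.1.L (-0.059 to 0.064) and the gh1.S share with stage (-1.75 to 0.74 points). With single pairs left out of the blocked fit they crossed 0 for ghrhr (-0.055 to 0.22), pomc.S (-0.092 to 0.039), prlr.S (-0.16 to 0.16), ghr.L (-0.24 to 0.25), sst.1.S (-0.12 to 0.043), sst.1.L (-0.073 to 0.090) and nmu.L (-0.28 to 0.017). No call is read for the growth hormone genes. Among the other named genes, the block changed in edgeR the calls of gnrh2.L and igfbp2.S only. Depth limits pou1f1.L, with 1 to 15 reads, far more than the growth hormone genes, with 56 reads or more.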
